A study of Mus musculus with 4 samples.

Results

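D3 is a line of mouse embryonic stem cells. In the experiment described here its cells were differentiated as embryoid bodies, aggregates grown without the cytokine LIF in medium with 15% serum, and RNA was taken at 24 h and at 96 h. The study silenced Pnpla6, a phospholipase also called neuropathy target esterase, with 1.25 pmol of each siRNA, and hybridised the RNA of silenced and control cells together on 4 Agilent whole mouse genome arrays with 2 dyes. The values below are those of the control cells alone, which make up 4 of the 8 RNA channels. They were chosen by the labels: the Cy5 channel on replicate 1 and the Cy3 channel on replicate 2 of each time. The control cells are D3 cells with no siRNA against Pnpla6, and the labels do not say what they received in its place, nor whether the replicates came from separate cultures. The 96 h RNA was compared with the 24 h RNA between arrays. Replicate 1 is set beside replicate 1 in Cy5 and replicate 2 beside replicate 2 in Cy3, so that each pair shares its dye. The pairs only show the change in each dye. Standard errors, p-values and calls come from an unpaired fit over all 8 channels with a dye term. Its spread is therefore estimated from the silenced channels too, and is partly pooled over genes. With 2 channels a group the p-values measure only the spread between the channels of these arrays, which may be technical.

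Embryonic stem cells hold the state of the naive epiblast of the early embryo while LIF and other signals maintain the factors Oct4 (the product of Pou5f1), Sox2 and Nanog. When LIF is withdrawn and the cells aggregate, they pass through a formative state that resembles the epiblast after implantation, marked by Fgf5, Otx2 and Dnmt3b, before the germ layers appear. The outer cells of an embryoid body form an epithelium of extraembryonic endoderm on a basement membrane, and the inner cells can go on to primitive streak, mesoderm and neural fates.

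Of 45018 spots on each array, 43379 were not controls. Between 63.7% and 67.9% of these stood well above background in the control channels, whose median spot signal was 118.5 to 130 in Cy5 and 55 to 61 in Cy3, with no saturated spot. The number of arrays limits the precision. Both 24 h arrays and replicate 1 of 96 h lay on the first slide, and replicate 2 of 96 h lay on a second slide with its own scan. Over the 21754 genes tested, the log2 intensities of the 2 replicates correlated across genes at r = 0.998 at each time, and those of 24 h and 96 h at 0.976 in either dye. Genes are not independent replicates.

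Markers of embryonic stem cells were high at both times, and some markers of other cell types stood above background. All 8 stem cell markers (Pou5f1, Sox2, Nanog, Zfp42, Esrrb, Klf4, Dppa5a and Utf1) stood above background in all 4 control channels, and their summed normalised intensity was 395786 and 248951 at 24 h (Cy5 and Cy3) and 400390 and 226569 at 96 h. Dppa5a, the brightest, makes up most of these sums; Zfp42 and Utf1 fell, and the other 6 did not pass. Markers well above background in both channels of a time numbered 7 at 24 h and 8 at 96 h of 11 for feeder fibroblasts, 6 and 7 of 9 for extraembryonic endoderm, 4 and 4 of 4 for neural cells, and 2 and 3 of 4 for cardiac muscle. They numbered 2 and 2 of 5 for the primitive streak. For endothelium and blood they were 2 and 1 of the 4 with a probe matched to their symbol, and for trophoblast 2 and 1 of the 5 so matched. Tal1 and Prl3d1 had no matched probe, which does not show that the array lacks them. Among all spots that were not controls, 63.7% to 67.9% stood well above background. Levels varied: at 24 h in Cy5 Sox1 was 6.54, Pax6 6.40 and Gata4 6.41, near Afp at 5.93, which was not well above background. Nes was 9.25, Myl7 10.00 and Thy1 10.13. Such counts alone do not show that cells of a type were present. Defining markers that were not well above background in any control channel were Col3a1, Lum and Postn of feeder fibroblasts, Ttr of endoderm, Mixl1 of the primitive streak, Cdh5 and Hbb-bh1 of endothelium and blood, and Elf5, Gata3 and Tpbpa of trophoblast. In RNA of whole bodies, fewer cells of a type and less RNA per cell cannot be told apart.

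By limma's single-channel fit at a Benjamini-Hochberg adjusted p under 0.05, 7921 of 21754 genes differed, which is 36.4% of those tested: 4196 were higher at 96 h (19.3%) and 3725 lower (17.1%). A change of 2-fold or more was reached by 1244 genes (5.72%), 853 higher (3.92%) and 391 lower (1.8%). These shares are the background against which the counts of each gene group below are set. The total that passed depended on the fit and ran from 7409 to 12768 genes over the settings tried. A gene that did not pass is therefore not shown to be unchanged. The median change over all genes was -0.01 on the log2 scale, and the median standard error of a change was 0.107. The changes of the 2 pairs, measured in different dyes, correlated across genes at r = 0.949 (Spearman's rho 0.899). The sign was the same in both pairs for 18332 of all 21754 genes (84.3%). It was the same for all 7921 genes that passed, but a gene whose pairs disagree can hardly pass, so this is no separate support. The threshold of 2-fold depended on the background correction, which compresses low values: with an offset of 16 in place of 50, 1191 genes rose and 606 fell by that much, and with the scanner's processed signals 2077 rose and 1082 fell. Within the first slide alone, which leaves 1 channel at 96 h, all 1244 genes changed 2-fold or more kept their direction. That fit reuses 3 of the 4 arrays by which these genes were chosen, so it cannot test an effect of the slide.

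**Figure D1:**
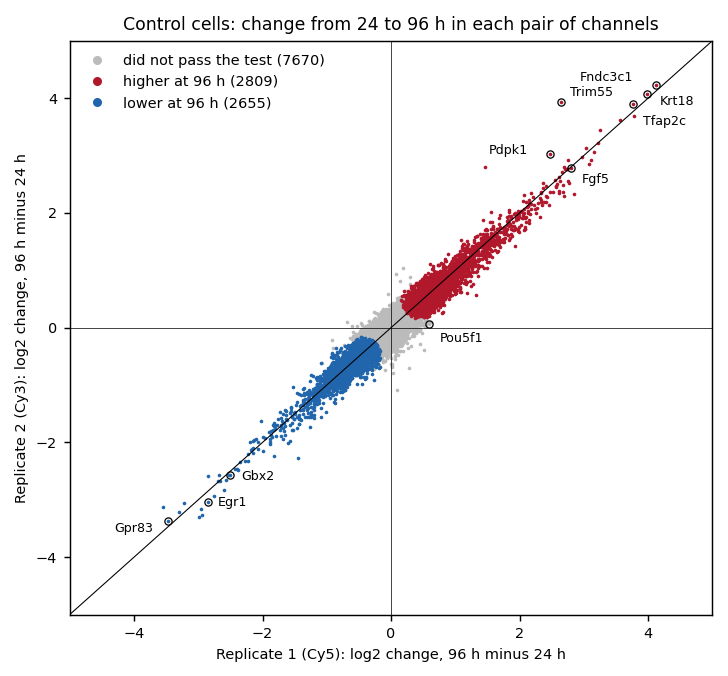
Log2 change from 24 to 96 h in control cells for each gene with a symbol, in the Cy5 pair of replicate 1 (x axis) and the Cy3 pair of replicate 2 (y axis); the diagonal marks equal changes. Genes that passed the test lie along the diagonal, while Trim55 rose by 2.65 in Cy5 and 3.93 in Cy3 and Pou5f1 differed by 0.59 in Cy5 and 0.06 in Cy3.

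The genes that rose most included an epithelial keratin, a trophoblast and germ cell transcription factor, and epiblast surface proteins. Fndc3c1, which encodes a protein with fibronectin type III domains, went from 6.34 at 24 h to 10.46 at 96 h in Cy5 and from 6.36 to 10.59 in Cy3. This was a rise of 4.18 ± 0.12 on the log2 scale (± standard error, n = 2 channels at each time, as throughout), with an adjusted p of 3.68e-06; another probe of the gene changed by 2.04. Krt18, a keratin of simple epithelia, went from 11.05 at 24 h to 15.04 at 96 h in Cy5 and from 10.94 to 15.01 in Cy3, a rise of 4.03 ± 0.09. Tfap2c, an AP-2 factor of trophoblast, epiblast and germ cells, went from 8.32 at 24 h to 12.07 at 96 h in Cy5 and from 8.34 to 12.25 in Cy3, a rise of 3.83 ± 0.09. For these 3 genes the 24 h and 96 h values were far apart in either dye. Their choice among the largest rises makes that likely. The median gap between replicates, over genes with a symbol, was 0.101 at 24 h and 0.091 at 96 h. Separation of the 2 times in a gene with a far larger change therefore adds no support to the test. Car4, a membrane-bound carbonic anhydrase, rose by 3.73 ± 0.09, Prtg, a surface receptor of the early embryo, by 3.59 ± 0.10 (2.46 with its other probe), and Cldn7, a claudin of tight junctions, by 3.35 ± 0.16. Trim55, a ring finger protein of the muscle sarcomere, went from 8.95 at 24 h to 11.60 at 96 h in Cy5 and from 8.11 to 12.05 in Cy3, so that its rise of 3.29 ± 0.28 had the widest gap between pairs among the 30 genes with the largest changes. The other rises of the 15 largest were Pdlim4 (an actin-binding PDZ and LIM protein, 3.22), the scaffold gene Pdzk1 (3.11), the thyroid hormone binding protein Crym (3.08), Rimkla (2.97), the interferon-inducible GTPase Igtp (2.97), the p38 kinase Mapk13 (2.84) and the growth factor Fgf5 (2.79). Mogat2, an acyltransferase of triglyceride synthesis, was not well above background in either 24 h channel, and was at least 8.10-fold higher at 96 h (adjusted p = 2.54e-05). That bound sets its mean at 96 h against the higher of its own 24 h signal and the lowest signal well above background on those arrays, and the same bound is used for other genes below.

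The genes that fell most had diverse roles. Gpr83, a G protein-coupled receptor, went from 10.35 at 24 h to 6.88 at 96 h in Cy5 and from 10.12 to 6.75 in Cy3 and fell by 3.42 ± 0.15 (adjusted p = 8.73e-06). Sall3, a zinc finger factor, fell by 3.34 ± 0.17, with -2.24 for its other probe, and Lgals3, which encodes galectin-3, fell by 3.25 ± 0.13. Vim, the intermediate filament of mesenchymal cells, went from 11.85 at 24 h to 9.27 at 96 h in Cy5 and from 11.90 to 9.25 in Cy3 and fell by 2.61 ± 0.11. Egr1, an immediate early factor induced by ERK signalling, went from 10.99 at 24 h to 8.15 at 96 h in Cy5 and from 10.94 to 7.90 in Cy3 and fell by 2.94 ± 0.11. In Gpr83, Vim and Egr1 both 96 h values lay below both 24 h values, which their choice among the largest falls makes likely. Emp1 (-3.15), Crct1 (-3.14), the glutathione transferase Gsta3 (-3.11), the homeodomain protein Hopx (-3.05), the fetuin Fetub (-2.85), Accsl (-2.68) and the adhesion molecule Icam2 (-2.67) also fell. Titin, the giant sarcomere protein encoded by Ttn, fell by 2.72 ± 0.18 with its brightest probe. Its other probes that passed the filter on dim probes changed by -0.76, -1.48 and -2.25. Further Ttn probes, not well above background in any control channel, changed by 0.035, 0.024, 0.025 and -0.054. Cabs1 was not well above background in either 96 h channel and was at least 6.55-fold lower there (adjusted p = 4.2e-05).

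**Figure D2:**
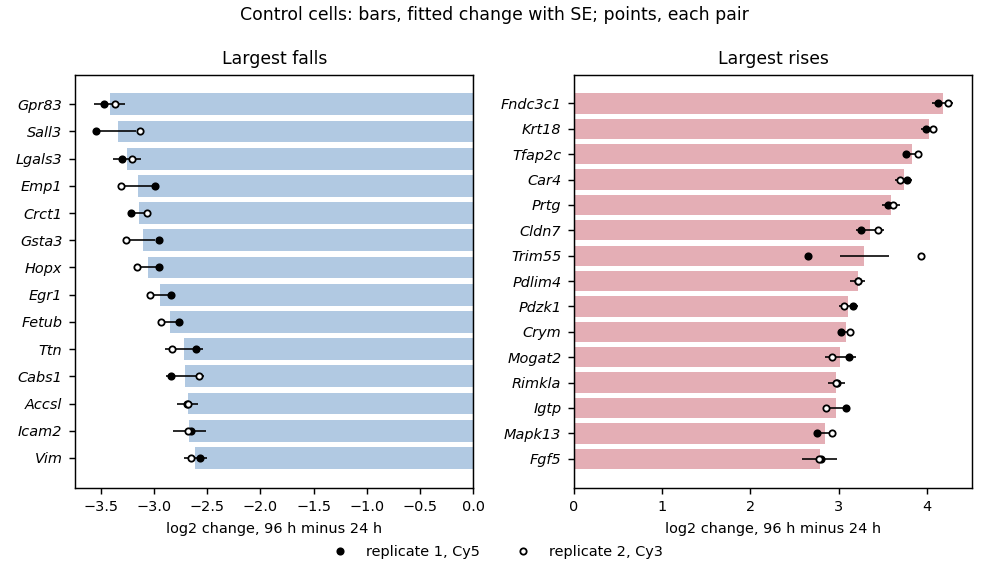
Fitted log2 change from 24 to 96 h (bars, with standard error) and the change in each same-dye pair (points) for genes among the 15 that fell most and the 15 that rose most in control cells; a bar is drawn for each of them that the text names. Apart from Trim55, at 2.65 and 3.93, the points of a gene lie close together compared with the size of its change.

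Sox2, Nanog and Pou5f1 did not pass the test, while other genes of the pluripotency network fell. Of 14 core genes tested, 5 fell (35.7%) and 1 rose (7.14%), the RNA-binding protein gene Lin28b (0.38), and the median change was -0.04. Sox2 was 11.63 at 24 h and 11.91 at 96 h in Cy5, and 11.68 and 12.03 in Cy3, a difference of 0.32 ± 0.13 that did not pass (adjusted p = 0.105). Nanog was 12.11 at 24 h and 12.25 at 96 h in Cy5, and 12.15 and 12.24 in Cy3, a difference of 0.11 ± 0.09 (adjusted p = 0.392). Pou5f1 was 13.11 at 24 h and 13.70 at 96 h in Cy5, and 14.30 and 14.36 in Cy3. Its 24 h channels differed by 1.19 from each other, a gap exceeded by 3 of the 13134 genes with a symbol, and its change of 0.32 ± 0.20 did not pass (adjusted p = 0.263). Lin28a, which blocks let-7, differed by 0.00 ± 0.10 (adjusted p = 0.981). The members that fell included Foxd3 (-1.63), a forkhead factor of the epiblast, Dppa2 (-0.99), a chromatin factor of the early embryo, the chromatin factor Utf1 (-0.40) and Sall4 (-0.31; adjusted p = 0.0514 with an offset of 16).

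Of 27 genes of the naive state, 11 fell (40.7%) and 4 rose (14.8%). Gbx2, a homeobox factor downstream of LIF, went from 11.21 at 24 h to 8.71 at 96 h in Cy5 and from 11.15 to 8.59 in Cy3 and fell by 2.53 ± 0.10 (adjusted p = 6.88e-06). Nr0b1, an orphan nuclear receptor also known as Dax1, went from 13.13 at 24 h to 11.69 at 96 h in Cy5 and from 13.57 to 11.30 in Cy3 and fell by 1.86 ± 0.21. Klf5, a Krüppel-like factor, went from 12.45 at 24 h to 10.77 at 96 h in Cy5 and from 12.45 to 10.79 in Cy3 and fell by 1.67 ± 0.09. The 2 times did not overlap for any of these 3, which changes of this size make likely. Zfp42, better known as Rex1, fell by 0.58 ± 0.10 and Tdh (-0.98), the threonine dehydrogenase of mouse stem cells, Gdf3 (-0.89), the LIF receptor gene Lifr (-0.81; its other probes changed by -0.68, 0.91 and -0.73) and Nr5a2 (-0.57) fell too. Other factors of the same state did not pass: Klf4 was 15.38 at 24 h and 15.16 at 96 h in Cy5, and 15.06 and 15.03 in Cy3 (-0.12 ± 0.13, adjusted p = 0.53), Esrrb differed by -0.23 ± 0.09 (adjusted p = 0.0823) and Tfcp2l1 by -0.04 ± 0.09 (adjusted p = 0.779). Dppa3, also called Stella, a maternal and germ cell factor, rose by 1.98 ± 0.15, from 6.45 at 24 h to 8.50 at 96 h in Cy5 and from 6.52 to 8.43 in Cy3. Socs3, a feedback inhibitor of LIF signalling, rose by 1.28 ± 0.11.

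**Figure D3:**
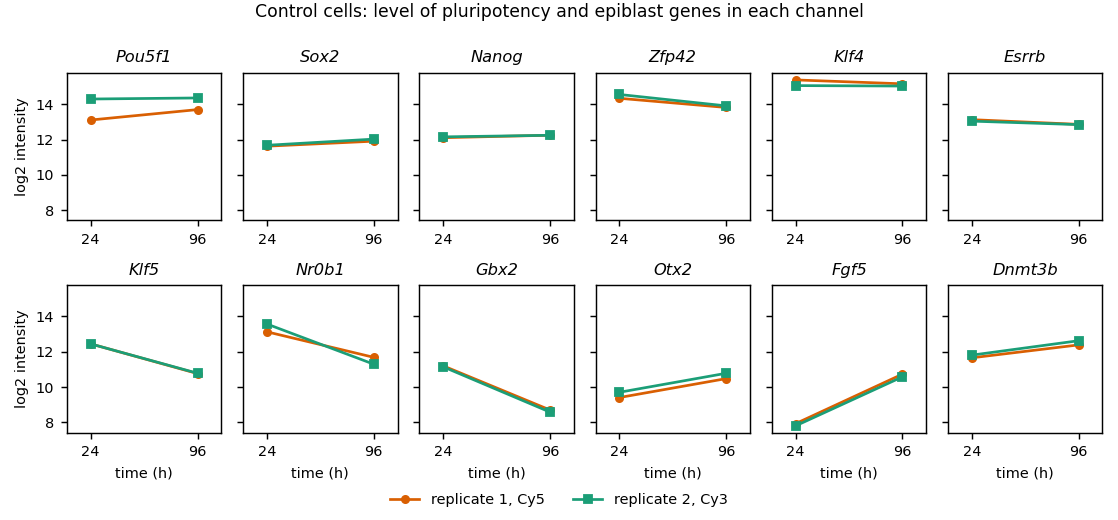
Normalised log2 intensity of 12 genes of pluripotency and of the epiblast in control cells at 24 h and 96 h, with a line for each same-dye pair. Nanog, Sox2, Klf4 and Esrrb did not pass the test, Klf5, Nr0b1 and Gbx2 fall, Otx2, Fgf5 and Dnmt3b rise, and the 24 h channels of Pou5f1 lie apart.

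Of 18 markers of the formative epiblast, 9 rose (50%) and 6 fell (33.3%), and 5 of the rises were 2-fold or more. Fgf5, the growth factor that marks the epiblast after implantation, went from 7.93 at 24 h to 10.74 at 96 h in Cy5 and from 7.81 to 10.58 in Cy3, a rise of 2.79 ± 0.20 (adjusted p = 5.64e-05). Otx2, a homeobox factor of the same stage, went from 9.41 at 24 h to 10.48 at 96 h in Cy5 and from 9.71 to 10.78 in Cy3 and rose by 1.07 ± 0.11. Dnmt3b, a de novo DNA methyltransferase, went from 11.66 at 24 h to 12.39 at 96 h in Cy5 and from 11.81 to 12.63 in Cy3 and rose by 0.77 ± 0.10. In all 3 genes both 96 h values exceeded both 24 h values, which changes of this size make likely. Pou3f1, or Oct6, rose by 0.71 ± 0.10, the zinc finger gene Sall2 by 2.35 ± 0.12, the claudin Cldn6 by 1.70 ± 0.09 and Zic2 by 0.62 ± 0.13. Against this, Etv4 (-2.03) and Etv5 (-0.76), ETS factors downstream of FGF, and Lef1 (-1.76), a transcription factor of the Wnt pathway, fell, and Sox3 did not pass (-0.04 ± 0.13, adjusted p = 0.832).

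Of 15 genes of the primitive streak, 4 rose (26.7%) and 2 fell (13.3%). Wnt3, the ligand that starts streak formation in the embryo, went from 6.28 at 24 h to 7.47 at 96 h in Cy5 and from 6.22 to 7.45 in Cy3 and rose by 1.21 ± 0.09, with a change of 0.65 in its other probe. The mesoderm factor Tbx6 rose by 0.59 ± 0.09 and Fgf8 by 0.38 ± 0.09. Eomes, a T-box factor of the streak, rose by 0.26 ± 0.08 (adjusted p = 0.0494; 0.0528 with quantile normalisation and 0.0553 within the first slide). Brachyury (gene T) was 6.14 at 24 h and 6.30 at 96 h in Cy5, and 6.16 and 6.25 in Cy3, a difference of 0.13 ± 0.10 that did not pass (adjusted p = 0.367), and Mesp1 differed by -0.10 ± 0.15 (adjusted p = 0.672). Lefty2, an inhibitor of Nodal, fell by 0.57 ± 0.10.

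The genes of extraembryonic endoderm that rose included proteins of the absorptive surface, and the brightest probes of the lineage's GATA factors did not pass. Of 25 tested, 10 rose (40%) and 1 fell (4%). Lrp2 rose by 1.60 ± 0.11, and Cubn (from 6.66 at 24 h to 7.41 at 96 h in Cy5 and from 6.55 to 7.17 in Cy3), Amn and Dab2 rose by 0.69 ± 0.16, 0.74 ± 0.13 and 1.12 ± 0.12, with 0.16 in another probe of Dab2; megalin, cubilin, amnionless and the adaptor Dab2 act together in the uptake of proteins by visceral endoderm and other absorptive epithelia. Amot, a cell polarity protein, rose by 2.12 ± 0.09, and Rbp4, a carrier of retinol, by 0.78 ± 0.09. For the GATA factors and Sox17 the values were as follows: Gata6 was 7.06 at 24 h and 7.17 at 96 h in Cy5, and 7.08 and 7.10 in Cy3 with its brightest probe (0.06 ± 0.09, adjusted p = 0.651) and changed by 0.50 with another, Gata4 differed by 0.00 ± 0.19 (adjusted p = 0.991) and Sox17 by -0.15 ± 0.11 (adjusted p = 0.349). Afp, alpha-fetoprotein, was not well above background at 24 h and at least 1.24-fold higher at 96 h (adjusted p = 0.0158). The summed intensity of the 8 endoderm markers tested was 757 and 733 at 24 h and 989 and 994 at 96 h.

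Most mesoderm and neural genes did not pass, and those that did went in both directions, at shares near those over all genes. Of 22 mesoderm and cardiac genes 4 rose (18.2%) and 5 fell (22.7%), and of 22 neural genes 3 rose (13.6%) and 4 fell (18.2%). Of 16 endothelial and blood genes 4 rose (25%) and 5 fell (31.2%). Tagln, an actin-binding protein of smooth muscle, went from 8.84 at 24 h to 11.42 at 96 h in Cy5 and from 8.95 to 11.46 in Cy3 and rose by 2.54 ± 0.11 (2.29 with its other probe). Acta2, smooth muscle actin, fell by 0.83 ± 0.18 with its brightest probe and changed by 1.26 with another, so that its direction is not settled. The cardiac factor Nkx2-5 differed by 0.05 ± 0.12 (adjusted p = 0.806) and the atrial light chain Myl7 by -0.27 ± 0.10 (adjusted p = 0.0715); none of the 4 cardiac markers passed by limma's test, though 2 had an unadjusted p under 0.05. Kdr, the VEGF receptor of blood and vessel progenitors, was not well above background at 96 h and at least 1.65-fold lower there (adjusted p = 0.000622). Among neural genes, Hes5, a Notch target, went from 7.06 at 24 h to 8.19 at 96 h in Cy5 and from 7.04 to 8.06 in Cy3 and rose by 1.08 ± 0.09, while the neurofilament gene Nefl fell by 1.60 ± 0.10. Sox1 differed by -0.11 ± 0.11 (adjusted p = 0.496), Pax6 by -0.25 ± 0.08 (adjusted p = 0.0542) and nestin (Nes) by 0.19 ± 0.11 (adjusted p = 0.233). Of 16 Hox and positional genes 1 rose (6.25%) and 2 fell (12.5%), Meis2 (-1.94) and Cdx2 (not well above background at 96 h, at least 1.31-fold lower).

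On the list of trophoblast and simple epithelium, 12 of 18 genes rose (66.7%) and 2 fell (11.1%), with a median of 0.70. The keratins Krt18 (4.03), Krt19 (1.82), Krt8 (0.96) and Krt7 (0.88; adjusted p = 0.0783 with processed signals) all rose, as did the X-linked homeobox genes Rhox9 (1.89), Rhox6 (0.92) and Esx1 (1.12), although the multigene Rhox family shares sequence. Krt8 went from 11.02 at 24 h to 12.18 at 96 h in Cy5 and from 11.39 to 12.15 in Cy3. Of the 6 defining trophoblast markers, Tfap2c rose, Cdx2 fell, Elf5, Gata3 and Tpbpa were not well above background in any control channel, and Prl3d1 was not analysed here. Cldn3 (1.35) and Cldn4 (1.11), claudins of epithelial tight junctions, the polarity gene Crb3 (0.99) and the epithelial splicing factor Esrp1 (0.98) rose, so that 9 of 23 adhesion genes rose (39.1%) and 3 fell (13%). E-cadherin (Cdh1) went from 11.29 at 24 h to 11.87 at 96 h in Cy5 and from 11.52 to 12.02 in Cy3, a rise of 0.54 ± 0.10 whose adjusted p was 0.00381, and 0.0542 with processed signals. Epcam differed by 0.38 ± 0.15 (adjusted p = 0.0838), and Snai1, a repressor of E-cadherin, by -0.25 ± 0.08 (adjusted p = 0.0544).

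Matrix genes rose in 14 of 29 cases (48.3%) and fell in 5 (17.2%). Itga1, a collagen-binding integrin, rose by 1.78 ± 0.13 with its brightest probe and changed by -0.21 with the other. Ccn1 (1.20) and Ccn2 (1.16), secreted targets of YAP, P4ha2 (1.15) and Plod2 (1.05), which hydroxylate collagen, and the basement membrane genes Frem2 (1.16), Lamb1 (0.68) and Col4a1 (0.49) rose. Lama1, the laminin chain of the first embryonic basement membranes, went from 7.75 at 24 h to 6.72 at 96 h in Cy5 and from 7.97 to 6.78 in Cy3 and fell by 1.11 ± 0.23. Fibroblast markers moved the same way as this list: 7 of 12 genes of the feeder fibroblast list rose and none fell by limma's test (0 at an unadjusted p under 0.05). They were led by Fbln2 (1.90), Cxcl12 (1.83; 0.16 in its other probe) and Mmp2 (1.60), with Col1a1 (0.52), Col1a2 (0.54) and Dcn (1.03). Of the 11 defining markers, 6 rose, Col3a1, Lum and Postn were not well above background, and the summed intensity of the 8 tested was 1981 and 2073 at 24 h and 3483 and 3168 at 96 h. Their part in the rise of the matrix genes was not tested.

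Of 23 genes of the FGF and ERK pathway, 8 rose (34.8%) and 7 fell (30.4%). The ligand Fgf5 and the receptors Fgfr4 (1.19) and Fgfr2 (0.75) rose, and so did the feedback phosphatase Dusp4 (1.80) and Spry1 (0.82). The transcription factors Egr1 (-2.94), Etv4 (-2.03), Etv5 (-0.76) and Etv1 (-0.68), which respond to ERK, fell, together with the inhibitor Spry4 (-0.84) and the ligand Fgf15 (-0.91). Etv4 went from 12.10 at 24 h to 10.04 at 96 h in Cy5 and from 12.07 to 10.09 in Cy3. Dusp6, a phosphatase specific to ERK, differed by 0.30 ± 0.10 and did not pass (adjusted p = 0.0559).

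In the Wnt pathway 9 of 26 genes rose (34.6%) and 5 fell (19.2%). The ligands Wnt3 (1.21) and Wnt8a (0.59) and the receptors Fzd2 (1.22) and Fzd7 (0.65; 0.05 in its other probe) rose, Wnt6 fell (-1.07), and the secreted inhibitors Sfrp2 and Sfrp1 moved apart. Sfrp2 rose by 2.00 ± 0.17, from 7.95 at 24 h to 9.94 at 96 h in Cy5 and from 8.02 to 10.04 in Cy3, while Sfrp1 fell by 1.40 ± 0.09, from 12.41 at 24 h to 11.04 at 96 h in Cy5 and from 12.43 to 10.99 in Cy3. Among genes that Wnt signalling induces, Notum, an esterase that inactivates Wnt ligands, fell by 2.09 ± 0.11, Lef1 went from 8.23 at 24 h to 6.58 at 96 h in Cy5 and from 8.44 to 6.57 in Cy3 and fell by 1.76 ± 0.11, Nkd1 rose by 0.78 ± 0.14, and Axin2 differed by -0.21 ± 0.11 (adjusted p = 0.173).

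In the Nodal and TGF-beta pathway 6 of 26 genes rose (23.1%) and 7 fell (26.9%). The ligand Gdf1, a partner of Nodal, rose by 1.90 ± 0.10, and Furin, a protease that matures the ligands, by 1.26 ± 0.11, while Inhbb (-1.81), Tgfb1 (-1.66), Gdf3 (-0.89) and the antagonist Fst (-1.47) fell. Tdgf1, the Nodal co-receptor, differed by -0.09 ± 0.11 (adjusted p = 0.586) and Lefty1 by 0.38 ± 0.16 (adjusted p = 0.1). In the BMP pathway 8 of 23 rose (34.8%) and 4 fell (17.4%). The members that fell were the ligand Bmp4 and its targets Id3, Id1 and Bambi. Bmp4 went from 11.93 at 24 h to 10.22 at 96 h in Cy5 and from 11.81 to 10.23 in Cy3 and fell by 1.65 ± 0.11. Id3, an inhibitor of basic helix-loop-helix factors, went from 11.12 at 24 h to 8.98 at 96 h in Cy5 and from 11.05 to 8.94 in Cy3 and fell by 2.12 ± 0.09. Id1 fell by 0.85 ± 0.13 and Bambi by 0.51 ± 0.09, whereas Id2 did not pass (-0.32 ± 0.12, adjusted p = 0.067). The ligand Bmp7 rose by 1.11 ± 0.10, with 1.10 for its other probe.

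Of 22 Notch and Hedgehog genes 7 rose (31.8%) and 4 fell (18.2%). The receptors Notch3 (1.75), Notch2 (0.74) and Notch1 (0.69), the ligand Jag2 (0.84) and the target Hey1 (1.16) rose, and the ligand Jag1 fell (-0.77, and -0.12 in its other probe); the other probes of Notch2 changed by -0.15 and -0.01. The Hedgehog effector Gli1 (-0.37) fell, and the receptor gene Ptch1 differed by 0.04 ± 0.10 (adjusted p = 0.788). Of 18 genes of the retinoic acid pathway 7 rose (38.9%) and 4 fell (22.2%). Stra8, a retinoic acid target needed for meiosis, went from 6.81 at 24 h to 9.42 at 96 h in Cy5 and from 6.71 to 9.34 in Cy3 and rose by 2.62 ± 0.09. Dhrs3, a retinal reductase, rose by 1.55 ± 0.17, while Aldh1a2, which makes retinoic acid, fell by 0.80 ± 0.13 and the receptor gene Rarg by 1.02 ± 0.12. Cyp26a1, which breaks it down, differed by 0.20 ± 0.09 (adjusted p = 0.131).

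**Figure D4:**
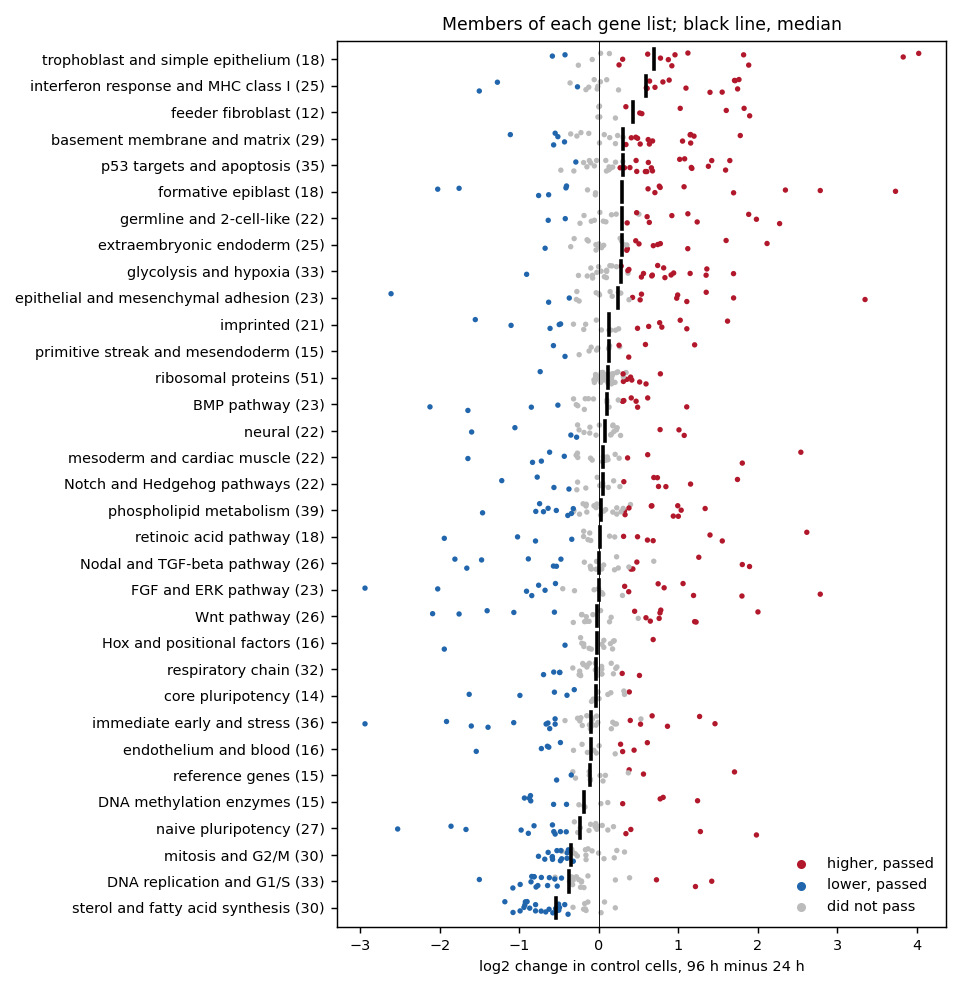
Log2 change from 24 to 96 h in control cells (x axis) of each tested member of 33 gene lists, with the number of members in brackets and the median as a black line; red and blue points passed the test. Medians run from -0.54 for sterol and fatty acid synthesis to 0.70 for trophoblast and simple epithelium.

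The enzymes of DNA methylation moved in both directions. Of 15 tested, 4 rose (26.7%) and 6 fell (40%). Dnmt3b rose, while Dnmt3l, the cofactor of de novo methylation, fell by 0.87 ± 0.10, Uhrf1, which brings the maintenance methyltransferase to DNA, by 0.86 ± 0.09, and the oxidase gene Tet2 by 0.86 ± 0.12. Dnmt3l went from 15.77 at 24 h to 14.78 at 96 h in Cy5 and from 15.85 to 15.09 in Cy3. Of 22 germline genes, 10 rose (45.5%) and 2 fell (9.09%). Sycp3, a protein of the meiotic chromosome axis, went from 7.16 at 24 h to 9.49 at 96 h in Cy5 and from 7.04 to 9.26 in Cy3 and rose by 2.28 ± 0.19. Mael, which acts in the piRNA pathway, rose by 1.24 ± 0.10, Rhox5 by 1.12 ± 0.09 and Dazl, an RNA-binding protein of germ cells, by 0.48 ± 0.09, whereas Ddx4 differed by 0.16 ± 0.15 (adjusted p = 0.45). Of 21 imprinted genes 7 rose (33.3%) and 5 fell (23.8%). Igf2 rose by 1.11 ± 0.09 and Sgce by 1.62 ± 0.14, and the growth inhibitor Cdkn1c fell by 1.55 ± 0.12 and Phlda2 by 1.10 ± 0.09.

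Genes of glycolysis and the response to hypoxia rose in 16 of 33 cases (48.5%) and fell in 1 (3.03%). Bnip3, a mitophagy receptor induced by hypoxia, went from 11.88 at 24 h to 13.54 at 96 h in Cy5 and from 11.90 to 13.63 in Cy3, a rise of 1.70 ± 0.09 (adjusted p = 2.21e-05). Vegfa, the angiogenic growth factor, rose by 1.35 ± 0.11 (0.51 and 1.05 with its other probes), and the brain aldolase gene Aldoc by 1.36 ± 0.09. Slc2a1, the glucose transporter GLUT1, went from 13.29 at 24 h to 14.31 at 96 h in Cy5 and from 13.11 to 13.98 in Cy3 and rose by 0.94 ± 0.13, and Pdk1, which holds pyruvate back from mitochondria, rose by 0.83 ± 0.10. Several enzymes of the pathway did not pass, among them Ldha (-0.02 ± 0.09, adjusted p = 0.865) and Hk2 (0.07 ± 0.12, adjusted p = 0.691), and Ndrg1, another gene known to respond to hypoxia, fell by 0.91 ± 0.11.

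The hypoxia-inducible factors bind elements with the core ACGTG. In RefSeq promoters of GRCm38.p6, taken as the 250 bases before the start furthest upstream and searched on both strands, 15 of 31 genes of this list held the core (48.4%), against 4467 of all 27025 genes (16.5%) and 2220 of 10518 genes tested here with a promoter in the table (21.1%). The same core stood in 8 of 25 mitosis genes (32%), 5 of 25 replication genes (20%) and 3 of 19 sterol genes (15.8%). The glycolysis and hypoxia list was made of genes known for these roles. A share above that of all genes was therefore likely whatever their expression here. Of the 15 members of that list that rose and have a promoter in the table, 9 held the core. The 3 that rose most and held it were Bnip3 (chr7:138909507-138909756, minus strand), P4ha2 (chr11:54100674-54100923, plus strand) and Slc2a1 (chr4:119108495-119108744, plus strand). They are shown to place the core within promoters of members that moved together; capitals mark ACGTG or its reverse complement, and a match is a description of the letters, not a binding site.
Bnip3: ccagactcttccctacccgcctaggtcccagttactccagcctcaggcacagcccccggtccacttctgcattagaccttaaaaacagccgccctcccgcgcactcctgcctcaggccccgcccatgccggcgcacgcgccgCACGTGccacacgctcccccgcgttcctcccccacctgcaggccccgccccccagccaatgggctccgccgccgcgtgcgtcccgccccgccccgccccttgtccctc
P4ha2: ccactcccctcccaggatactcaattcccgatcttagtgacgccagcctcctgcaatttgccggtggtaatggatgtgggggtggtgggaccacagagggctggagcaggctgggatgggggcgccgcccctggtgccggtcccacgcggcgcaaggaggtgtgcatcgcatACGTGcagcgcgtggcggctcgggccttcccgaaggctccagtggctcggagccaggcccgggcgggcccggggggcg
Slc2a1: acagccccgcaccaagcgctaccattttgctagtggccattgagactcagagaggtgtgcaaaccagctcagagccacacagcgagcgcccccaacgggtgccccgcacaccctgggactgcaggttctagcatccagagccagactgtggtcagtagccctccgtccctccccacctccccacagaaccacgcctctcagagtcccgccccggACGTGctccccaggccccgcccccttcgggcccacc

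Of 30 genes of sterol and fatty acid synthesis, 21 fell (70%), and the median was -0.54, against -0.01 over all genes. None rose by limma's test (0 at an unadjusted p under 0.05, and at most 1 under any other setting tried). Scd2 and Scd1, desaturases that make oleate, fell by 1.18 ± 0.12 and 1.08 ± 0.13; Scd2 went from 14.07 at 24 h to 12.82 at 96 h in Cy5 and from 14.00 to 12.89 in Cy3. Fasn, fatty acid synthase, went from 14.86 at 24 h to 14.02 at 96 h in Cy5 and from 14.95 to 13.99 in Cy3 and fell by 0.90 ± 0.10 (adjusted p = 0.000421). Later steps of the sterol pathway fell as well, with Mvd at -0.94, Lss at -0.87 and Cyp51 at -0.99. The factors that drive these genes did not pass: Srebf2 differed by 0.03 ± 0.14 (adjusted p = 0.898) and Srebf1 by -0.17 ± 0.10 (adjusted p = 0.25). Hmgcs1 differed by -0.18 ± 0.14 with its brightest probe (adjusted p = 0.361) and by -0.67 with its other probe.

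Phospholipid genes changed in both directions, 11 higher (28.2%) and 9 lower (23.1%) of 39. Pnpla6, the gene silenced in the other arm of the study, went from 10.83 at 24 h to 10.48 at 96 h in Cy5 and from 10.82 to 10.48 in Cy3 in these control cells. It fell by 0.34 ± 0.10 (adjusted p = 0.03; 0.0521 with an offset of 16 and 0.0541 within the first slide), and its other probe changed by -0.66. Its relatives moved apart: Pnpla7 rose by 1.00 ± 0.10 and Pnpla2, the lipase of fat droplets, by 1.04 ± 0.12, while Pnpla3 fell by 0.70 ± 0.10. Lpin1, a phosphatidate phosphatase, rose by 1.34 ± 0.10. The transferases that activate choline and ethanolamine for membrane lipids fell: Pcyt1b by 1.46 ± 0.10, Pcyt2 by 0.53 ± 0.09 and Pcyt1a by 0.39 ± 0.08 (adjusted p = 0.0791 for Pcyt1a with processed signals).

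Cell cycle genes that passed were mostly lower at 96 h. Of 33 genes of replication and G1/S, 15 fell (45.5%) and 3 rose (9.09%), and of 30 genes of mitosis, 14 fell (46.7%). None of the mitosis genes rose by limma's test (0 at an unadjusted p under 0.05, and at most 3 under any other setting tried). The 3 genes of the replication list that rose were inhibitors of the cycle: Cdkn1a, the p21 inhibitor, went from 9.49 at 24 h to 10.90 at 96 h in Cy5 and from 9.41 to 10.84 in Cy3 and rose by 1.42 ± 0.09, Rb1 rose by 1.22 ± 0.12 (a change of 0.10 in its other probe) and Cdkn1b, or p27, by 0.73 ± 0.10. Ccne1, the cyclin that drives entry into S phase in these cells, went from 14.39 at 24 h to 12.90 at 96 h in Cy5 and from 14.51 to 13.00 in Cy3 and fell by 1.50 ± 0.10; Ccne2 fell by 1.08 ± 0.14 and Ccnd2 by 0.84 ± 0.12. Replication genes also fell, such as Mcm3 (-0.99) and Pcna (-0.62). Plk1, a kinase of mitotic entry, went from 13.61 at 24 h to 12.88 at 96 h in Cy5 and from 13.64 to 12.85 in Cy3 and fell by 0.76 ± 0.08 (adjusted p = 0.000445). Ccnb1 fell by 0.58 ± 0.09 with its brightest probe and changed by -0.13 and -0.39 with the others. With the median over its probes Ccnb1 did not pass limma's test (-0.14, adjusted p = 0.335). Cdk1 fell by 0.38 ± 0.11, and none of the 14 falls in mitosis genes reached 2-fold. Myc fell by 1.92 ± 0.09, from 10.78 at 24 h to 8.89 at 96 h in Cy5 and from 10.99 to 9.04 in Cy3, and its other probes changed by -1.95 and -1.59.

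Promoters of mitotic genes are known for CCAAT boxes, which the factor NF-Y binds. The letters CCAAT stood in the 250 bases before the start, on either strand, in 21 of 25 mitosis genes with a promoter in the table (84%), in 17 of 25 replication genes (68%) and in 13 of 19 sterol genes (68.4%), against 34.5% of all genes and 36.5% of genes tested here. Of the 13 mitosis genes that fell and have a promoter in the table, 11 held it. The 3 that fell most and held it were Plk1 (chr7:122159185-122159434, plus strand), Ube2c (chr2:164769679-164769928, plus strand), which marks cyclins for destruction, and Racgap1 (chr15:99651657-99651906, minus strand), which acts in cytokinesis. Ube2c fell by 0.68 ± 0.09 and Racgap1 by 0.64 ± 0.09 (adjusted p = 0.0576 with processed signals). Capitals mark CCAAT or its reverse complement, and Ube2c held 6 matches, of which a pair overlaps.
Plk1: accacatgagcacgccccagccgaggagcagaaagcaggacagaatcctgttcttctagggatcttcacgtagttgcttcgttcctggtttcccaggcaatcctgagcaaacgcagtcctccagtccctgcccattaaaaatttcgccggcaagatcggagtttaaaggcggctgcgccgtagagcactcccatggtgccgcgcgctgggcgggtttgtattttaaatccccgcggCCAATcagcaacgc
Ube2c: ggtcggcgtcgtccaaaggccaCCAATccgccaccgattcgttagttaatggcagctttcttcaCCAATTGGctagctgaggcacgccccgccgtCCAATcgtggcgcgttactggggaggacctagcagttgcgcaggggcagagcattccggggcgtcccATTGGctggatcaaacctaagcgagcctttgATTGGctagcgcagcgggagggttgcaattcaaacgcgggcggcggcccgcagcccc
Racgap1: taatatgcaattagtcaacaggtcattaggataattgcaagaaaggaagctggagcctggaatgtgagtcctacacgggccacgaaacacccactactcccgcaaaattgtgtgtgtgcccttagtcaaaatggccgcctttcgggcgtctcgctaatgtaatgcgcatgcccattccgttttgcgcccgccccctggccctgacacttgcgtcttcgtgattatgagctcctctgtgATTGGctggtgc

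Cdkn1a is also a target of p53. Of 35 genes of p53 and apoptosis, 18 rose (51.4%) and 1 fell (2.86%), 8 of the rises being 2-fold or more. Bbc3, or PUMA, went from 11.05 at 24 h to 12.60 at 96 h in Cy5 and from 11.09 to 12.73 in Cy3 and rose by 1.60 ± 0.09. Mdm2, the ligase that degrades p53, went from 10.53 at 24 h to 11.37 at 96 h in Cy5 and from 10.37 to 11.57 in Cy3 and rose by 1.02 ± 0.11 with its brightest probe, and the other changed by 0.29. Trp53inp1 (1.65), Pmaip1 (1.38), Ccng1 (1.17), Zmat3 (1.16) and Phlda3 (1.08), all known p53 targets, rose as well. The transcript of p53 itself (Trp53) differed by -0.48 ± 0.18 and did not pass (adjusted p = 0.0801), nor did Bax (-0.10 ± 0.18, adjusted p = 0.703).

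**Figure D5:**
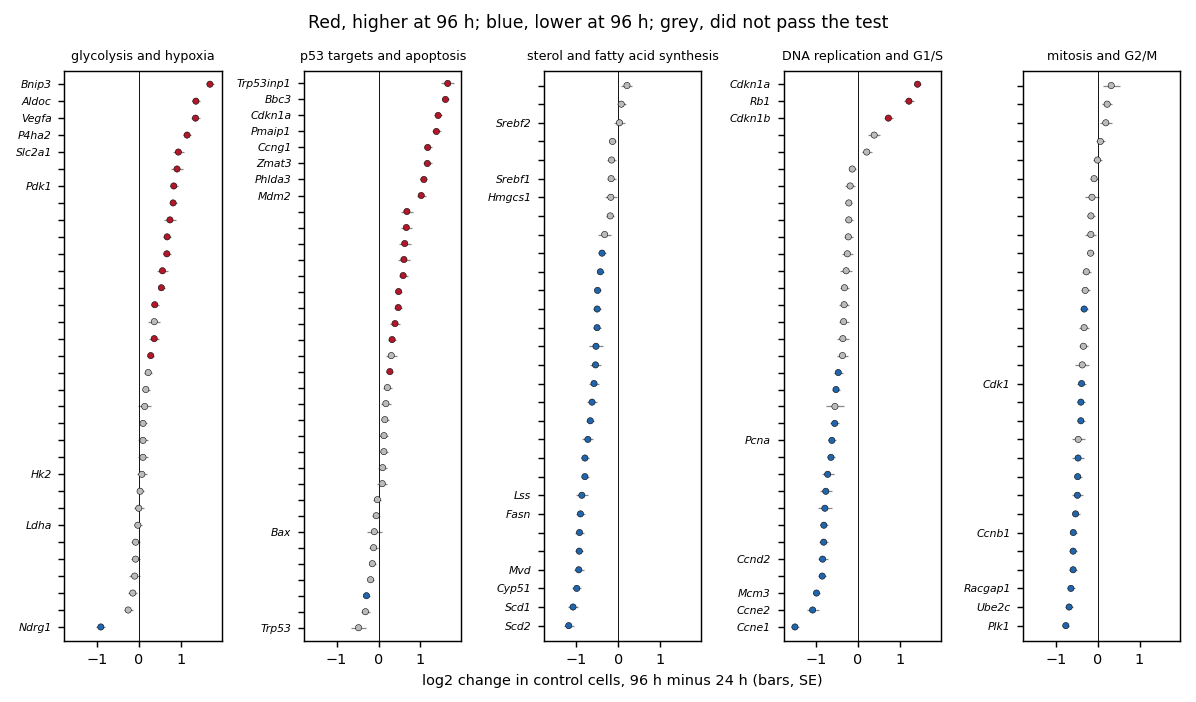
Log2 change from 24 to 96 h in control cells (x axis, with standard error) of each tested gene of 5 lists: glycolysis and hypoxia, p53 targets and apoptosis, sterol and fatty acid synthesis, replication and G1/S, and mitosis; genes named in the text are labelled. Most points of the first 2 lists lie above 0 and most of the other 3 below it, with Cdkn1a, Rb1 and Cdkn1b as the members of the replication list that rose.

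Of 25 genes of the interferon response and MHC class I, 13 rose (52%) and 3 fell (12%). B2m, the light chain of MHC class I, went from 9.87 at 24 h to 11.45 at 96 h in Cy5 and from 9.83 to 11.68 in Cy3 and rose by 1.71 ± 0.12 (adjusted p = 5.87e-05). H2-K1, a heavy chain, rose by 0.71 ± 0.10 with its brightest probe and changed by -0.04 and 0.09 with the others, in a family whose members share sequence. Psmb9, a subunit of the immunoproteasome, went from 8.23 at 24 h to 10.03 at 96 h in Cy5 and from 8.29 to 10.02 in Cy3 and rose by 1.76 ± 0.10, and Psmb8, not well above background at 24 h, was at least 2.93-fold higher at 96 h (adjusted p = 3.18e-05). The peptide transporter genes Tap1 (0.64) and Tap2 (0.61), Gbp2 (1.72), Bst2 (1.75) and the factor Irf1 (1.10; 0.14 in its other probe) also rose. The genes that fell were Ddx58, which encodes the RNA sensor RIG-I (-1.50; -1.32 and -0.06 in its other probes), Oas1a (-1.28) and Rsad2 (-0.27).

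Immediate early and stress genes rose in 6 of 36 cases (16.7%) and fell in 10 (27.8%). Heat shock genes were among those that fell: Hspa1a went from 10.26 at 24 h to 8.96 at 96 h in Cy5 and from 10.19 to 8.71 in Cy3 and fell by 1.39 ± 0.15, Hsph1 fell by 1.60 ± 0.12 and Hspb1 by 1.07 ± 0.15. Fos (0.20 ± 0.14, adjusted p = 0.294) and Jun (0.18 ± 0.09, adjusted p = 0.187), immediate early genes like Egr1, did not pass, and Ier5 rose by 1.46 ± 0.09. Of 32 respiratory chain genes 2 rose (6.25%) and 4 fell (12.5%), with Cox4i1 at 0.04 ± 0.11 (adjusted p = 0.817). Of 51 ribosomal protein genes, 8 rose (15.7%) and 1 fell (1.96%), Rpl39l (-0.74); many of them have near-identical pseudogenes, so their values are uncertain. Among 15 genes often used as references, Gapdh differed by -0.11 ± 0.09 (adjusted p = 0.42) and Tbp by -0.12 ± 0.09 (adjusted p = 0.35), while Actb fell by 0.35 ± 0.09 and B2m, as above, rose.

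The course of the control cells was last set against that of the silenced cells on the same arrays. Taking the log ratio within each array, the change from 24 to 96 h differed between silenced and control cells for 1503 genes (6.91%), the signed difference, silenced minus control, being above 0 for 615 (2.83%) and below 0 for 888 (4.08%). The single-channel fit called 4415 (20.3%), 2134 above 0 (9.81%) and 2281 below 0 (10.5%); on simulated data it made more false calls of this difference than the fit of ratios. A difference of 2-fold or more was found for 24 genes (0.11%) by either fit. Pou5f1 showed the largest: against 0.32 ± 0.20 in control cells its change in silenced cells was -1.41, a difference of -1.74 ± 0.09 (single-channel adjusted p = 8.61e-05). Some of the largest rises of the control cells were smaller in silenced cells, with 1.77 for Trim55, 2.87 for Fndc3c1 and 1.29 for Tagln. Cubn rose more in silenced cells (1.79), and Hspa1a changed by -0.36 there against -1.39 in control cells.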

How the data were processed

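Control and Pnpla6-silenced D3 cells were hybridised in pairs on 4 arrays, 2 at each time, from 200 ng of total RNA with dyes swapped between replicates. Per the file headers, the authors' scans were processed in Agilent Feature Extraction 10.7.1.1 (10.7 in the submitters' processing notes, where limma is named too). For each spot and channel the deposited files give the brightness of the spot and of the background around it, an intensity in arbitrary units. They hold median and not mean spot signals, so median signals took the place of the planned mean signals.

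Both channels of all arrays were read in R 4.3.3 with limma 3.58.1: normexp background correction with an offset of 50, loess within arrays with control spots at weight 0, and Aquantile between arrays. Of 41174 probes, 28082 stood well above background on both arrays of at least 1 RNA group. The brightest probe stood for each of 21754 genes. Other probes whose changes are given passed the same filter, except where said, and dimmer probes of a gene are left out. RefSeq accessions named 24375 probes, and 16799 kept the name of the array's design. A single-channel fit over 8 channels with a dye term (intraspot correlation 0.896, 3 residual and 4.58 prior degrees of freedom) gave 96 h minus 24 h, with Benjamini-Hochberg adjustment over all genes at 0.05. In simulated data 100 genes changed by 0.5 on the log2 scale and 100 by 1, among 21754. There the fit recovered most changes of 1, missed nearly all of 0.5, and overestimated the intraspot correlation. With so few changed genes the adjusted p is stricter than in the real data, where 36.4% of genes passed. The simulation therefore does not give the sensitivity here, where smaller changes passed, such as 0.26 for Eomes. For the difference between silenced and control courses the single-channel fit made 284 false calls and a fit of ratios within arrays 33.

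Genes were named by a rule: the 15 largest rises and falls with a plain symbol that passed, set anchors of each of 33 lists (907 genes, 759 tested) with up to 6 further members that passed, and the 6 largest differences each way from silenced cells. Some genes that the rule names are not reported here. Other names given to complete a count were chosen after their values were seen. The members and lists were chosen with earlier results of these data known. Promoter sequences are RefSeq's, build GRCm38.p6; the arrays' annotation used mm8, and no coordinates were taken from it. A promoter was found for 10518 of the 13134 tested genes with a symbol.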

Additional observations from a re-analysis of the deposited data

Results flagged for a closer look

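For 12 genes the change from 24 to 96 h differed between silenced and control cells by a test of the difference itself, and they are the 6 largest differences in each direction. The difference, silenced minus control, is one of signed log2 changes from the ratios within arrays, so that a value above 0 can also mean a smaller fall. It was 1.10 for Cubn, the cubilin receptor, 1.04 for the heat shock gene Hspa1a, 0.87 for Pnpla6, 0.72 for the Wnt inhibitor Sfrp1, 0.72 for the sialyltransferase St3gal3 and 0.71 for the water channel Aqp8. It was -1.74 for Pou5f1, -1.53 for Trim55, -1.35 for Pdpk1, a kinase that activates AKT, -1.31 for Fndc3c1, -1.25 for Tagln and -1.19 for the zinc transporter Slc39a8. Pdpk1 rose by 2.75 ± 0.15 in control cells with its brightest probe, while its other probes changed by -0.51 and -0.27. The adjusted p of these differences by limma lay between 3.78e-15 and 1.77e-06 in the fit of ratios, where 4 arrays leave 1 residual degree of freedom and the spread is pooled over genes. It lay between 4.84e-05 and 0.00254 in the single-channel fit, which made more false calls on simulated data. The fit of ratios made false calls there as well. Pnpla6 is the gene the study silenced.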

How the results depend on the processing

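All 1244 genes changed 2-fold or more in control cells were called in the same direction under every setting except processed signals (1241), the median over a gene's probes (1236) and the fit without 24 h replicate 2 (1243). These settings reuse arrays by which the genes were chosen, so that agreement was likely in advance. Of 33 gene lists, 31 kept the sign of their median under quantile normalisation, an offset of 16 and processed signals, and the Nodal and FGF lists did not. The 2-fold counts of 853 and 391 became 1191 and 606 with an offset of 16 and 2077 and 1082 with processed signals. An intraspot correlation from mean residual variances, 0.510 in place of 0.896, was an alternative added after the data were seen. With it 11465 genes passed, 5861 higher and 5604 lower. In simulated data with a correlation of 0.510 the fit estimated 0.906. The unpaired fit of the control channels alone passed 10103 genes, 5207 higher and 4896 lower. The share of 36.4% and the genes said not to pass therefore depend on the fit. The replicate numbers pair no cultures in the labels. The difference between replicates 1 and 2 in the average of an array's 2 channels correlated across genes between 24 h and 96 h at 0.259. With the replicate block 12385 genes passed, 6094 of them lower. In the control channels alone with that block 12768 passed, 6463 higher and 6305 lower. Leaving out 1 array gave 9972 to 11800 genes in all, 5102 to 6052 higher and 4870 to 5751 lower; the counts of lower genes without 24 h replicate 1 (5751) and replicate 2 (5748) exceeded 1.5 times the 3725 above. These fits have 1 residual degree of freedom, use the correlation of all 4 arrays, and assume that the lone array varies like the others. The cause was not tested.

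For the difference between silenced and control courses, against 4415 genes (2134 and 2281), ratios within arrays, also added later, gave 1503 (615 and 888). The correlation from mean residual variances gave 1072 (396 and 676), the replicate block 1011 (366 and 645), the first slide 8330 (3926 and 4404), and leaving out 1 array 7663 to 10316 (3907 to 5065 and 3756 to 5382).

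Of 266 genes of the naming rule that passed, 22 lost the call with processed signals, 12 with an offset of 16, 7 with the median over probes and at most 3 under any other setting. Named genes that had not passed also gained a call. They numbered 26 in the control channels alone with the replicate block, 22 with the block over all channels and 16 in the control channels alone, unpaired. There were 19 with the correlation from mean residual variances, 12 with the median over probes, 6 with processed signals and 3 with an offset of 16. Pdpk1 (-0.165) and Acta2 (0.213) turned with the median over probes. The other genes that changed sign had not passed. With processed signals these were Nanog (-0.082), Lin28a (-0.144), Sox3 (0.071), Gata4 (0.442; 0.014 with an offset of 16), Sox17 (0.071), Sox1 (0.058), Hk2 (-0.084), Rplp0 (-0.177) and Rpl3 (-0.031). With quantile normalisation they were Ldha (0.010) and Rplp0 (-0.027), and with the median over probes St3gal3 (-0.178), Ldha (0.009) and Rplp0 (-0.079). Within the first slide they were St3gal3 (-0.254), Aqp8 (-0.034), Ptch1 (-0.002), Stra6 (0.154), Hk2 (-0.052), Ldha (0.019), Rplp0 (-0.051) and Rpl3 (-0.016). Leaving out 1 array gave ranges of -0.254 to 0.288 for St3gal3, -0.034 to 0.306 for Aqp8, -0.079 to 0.083 for Lin28a, -0.078 to 0.004 for Tfcp2l1, -0.139 to 0.131 for Gata4, -0.004 to 0.129 for Gata6, -0.035 to 0.135 for Nkx2-5, -0.002 to 0.080 for Ptch1 and -0.541 to 0.154 for Stra6. They were -0.052 to 0.197 for Hk2, -0.060 to 0.019 for Ldha, -0.273 to 0.037 for Uqcrc1, -0.076 to 0.159 for Cox4i1, -0.349 to 0.007 for Hmgcs1, -0.213 to 0.008 for Bax, -0.051 to 0.052 for Rplp0 and -0.052 to 0.104 for Rpl3.

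The 2 times lie on different arrays, and 1 of the 96 h arrays on another slide, so array and time cannot be told apart. Of the genes tested, 518 were not well above background in either 24 h channel and were in both 96 h channels, and 254 the reverse; for these the fitted change depends on the background correction. Among 2030 genes with a symbol that passed and have further probes, 329 have a probe of opposite sign.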

Other observations

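Some gene families chosen by symbol after their values were seen also moved in control cells between 24 h and 96 h, and their counts are descriptions. Over all genes tested 19.3% rose and 17.1% fell, and families picked for their values can exceed these shares by that choice alone. Of 19 glutathione S-transferases, which conjugate glutathione to reactive compounds, 11 rose and 3 fell. Gsto1 rose by 1.87 ± 0.14, Gstt2 by 1.53 ± 0.10, Gstm5 by 1.43 ± 0.10 and Gstm2 by 1.02 ± 0.12, whereas Gsta3 fell by 3.11 ± 0.12, Gstp3 by 0.58 ± 0.09 and Gsta1 by 0.44 ± 0.10. The mu class members share sequence, so their values may not be independent. Of 10 annexins, which bind membranes in the presence of calcium, 5 rose, led by Anxa8 (2.56 ± 0.09), and Anxa1 fell by 0.52 ± 0.12.

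The same shares, 19.3% higher and 17.1% lower over all genes, apply to the next 2 families. Of 10 immunity-related and guanylate-binding GTPases, Gbp2 and Igtp among them, 5 rose and 1 fell. Igtp rose by 2.97 ± 0.10, Irgm2 by 2.29 ± 0.10 and Gbp2b by 1.02 ± 0.16, while Irgm1, a regulator of the other members, fell by 0.39 ± 0.12. Of 9 class I-like genes of the H2-Q, H2-T and H2-M regions, 4 rose by limma's test: H2-T10 by 2.66 ± 0.12, H2-T22 by 1.73 ± 0.10, H2-Q8 by 1.34 ± 0.10 and H2-M3 by 0.43 ± 0.12. These genes are near-identical copies in part, and probes may read more than 1 of them.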
